A study of Mus musculus with 2 samples.

Results

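High-CpG promoters are gene starts set in DNA rich in the dinucleotide CG, and in most cell types the majority of them carry trimethylation of histone H3 at lysine 4 (H3K4me3). The promoters described here are the exceptions in MEL cells, a mouse line from an erythroleukaemia. Its cells are much like red cell precursors and do not mature unless induced. Of the 20807 protein-coding genes that GENCODE M21 places on chromosomes 1 to 19, 9511 had a high-CpG promoter. That class required, within 500 bases to either side of the 5'-most start (the promoter window), a CpG observed to expected ratio of at least 0.6 and a GC content of at least 50%. A gene was a member where none of 4 deposited peak lists on mm10 held an H3K4me3 peak closer than, or at, 1000 bp to one of its annotated transcript starts. There were 1852 members, 19.5% of the high-CpG genes, and 7659 high-CpG genes with a peak. Without regard to promoter class, 47.5% of the 20807 genes had no peak in any list, and among the 11296 genes whose promoter was not high-CpG the share was 71.1%.

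The study mapped H3K4me3 by ChIP-seq in 2 replicate libraries of untreated MEL cells, with no second group or condition. The 4 lists are 1 for each replicate, 1 for both replicates pooled and 1 of replicated peaks. The labels number the libraries as biological replicates but both name 1 cell sample, and it is unclear whether their spread is biological or technical. Since the members were chosen on these peak lists, every share below is a description of the lists, no test was run, and no p-value is given.

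A nucleosome with H3K4me3 is a hallmark of active and poised promoters. CpG islands attract the enzymes that write the mark through proteins that bind unmethylated CG, so high-CpG promoters often carry it even at low transcription. Some classes of island genes are textbook exceptions outside their own tissue: regulators of embryonic patterning, which Polycomb complexes hold silent, and germline genes, whose islands can be methylated in somatic cells. Neither Polycomb marks nor DNA methylation were measured here.

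The sequences below show what such a promoter looks like. Each is the 150 bases just upstream of the 5'-most start on GRCm38 (the same build as mm10), 5' to 3' on the gene's strand, with every CG in capitals. The first 7 are the members of highest CpG ratio in the Hox, other homeobox, forkhead, basic helix-loop-helix, potassium channel, germline and WNT lists, and the last, Ank1, is a high-CpG gene of red cells with a peak at its start.
Hoxa5 (chr6:52204588-52204737, minus strand): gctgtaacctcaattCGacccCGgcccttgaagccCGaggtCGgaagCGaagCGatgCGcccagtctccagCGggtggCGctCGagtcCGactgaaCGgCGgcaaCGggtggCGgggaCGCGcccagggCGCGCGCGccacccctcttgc
Barhl2 (chr5:106458167-106458316, minus strand): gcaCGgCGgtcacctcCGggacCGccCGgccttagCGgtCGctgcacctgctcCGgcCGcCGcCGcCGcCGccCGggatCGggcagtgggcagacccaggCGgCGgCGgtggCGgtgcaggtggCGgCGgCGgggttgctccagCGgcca
Foxc1 (chr13:31806483-31806632, plus strand): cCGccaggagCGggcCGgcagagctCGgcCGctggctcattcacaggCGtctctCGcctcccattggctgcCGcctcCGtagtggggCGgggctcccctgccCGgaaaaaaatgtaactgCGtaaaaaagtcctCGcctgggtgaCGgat
Tcf15 (chr2:152143411-152143560, plus strand): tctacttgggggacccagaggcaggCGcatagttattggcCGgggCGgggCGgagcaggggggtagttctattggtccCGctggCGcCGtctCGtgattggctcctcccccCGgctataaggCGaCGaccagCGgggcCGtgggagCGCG
Kcnmb4 (chr10:116473879-116474028, minus strand): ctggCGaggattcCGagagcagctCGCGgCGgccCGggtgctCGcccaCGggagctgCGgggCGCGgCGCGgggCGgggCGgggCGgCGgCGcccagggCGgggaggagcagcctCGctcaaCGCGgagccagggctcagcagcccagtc
Boll (chr1:55363470-55363619, minus strand): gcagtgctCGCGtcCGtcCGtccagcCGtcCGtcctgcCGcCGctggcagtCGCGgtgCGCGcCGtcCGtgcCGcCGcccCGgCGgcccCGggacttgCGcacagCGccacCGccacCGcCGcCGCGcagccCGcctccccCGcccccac
Sfrp1 (chr8:23411352-23411501, plus strand): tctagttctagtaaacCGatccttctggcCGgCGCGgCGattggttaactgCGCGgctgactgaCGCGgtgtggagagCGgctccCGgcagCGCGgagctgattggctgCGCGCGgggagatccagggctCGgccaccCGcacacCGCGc
Ank1 (chr8:22974694-22974843, plus strand): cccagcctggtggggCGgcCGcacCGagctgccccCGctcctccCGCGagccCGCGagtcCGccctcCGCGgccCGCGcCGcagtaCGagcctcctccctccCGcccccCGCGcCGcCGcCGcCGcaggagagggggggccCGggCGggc
The 7 member stretches held from 14 CG (Foxc1) to 28 (Boll), and the Ank1 stretch held 24. The count in the gene with a peak fell within the range of the members.

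The 2 replicates left nearly the same promoters without a peak. In the replicate 1 list 1914 high-CpG genes (20.1%) had no peak at a start, and in the replicate 2 list 1868 (19.6%), a mean of 1891 genes with an SD of 32.5 (n = 2). The pooled list left 1885 (19.8%) and the replicated list 1902 (20.0%). Of the high-CpG genes with a peak, 7580 had it in all 4 lists and 79 in some lists only, and of the latter 61 had it in replicate 2 but not replicate 1, and 15 in replicate 1 but not replicate 2. Reads were not counted in the lists, the depth is unknown, and a promoter covered by too few reads would also appear as one without a peak. Peaks on chromosomes 1 to 19, X and Y numbered from 37379 in the replicated list to 51781 in replicate 1. All 8 genes looked at as markers of erythroid identity (Klf1, Tal1, Nfe2, Gfi1b, Zfpm1, Lmo2, Epor and Spi1) had a peak in every list. Spi1, the PU.1 gene, is also a factor of myeloid and B cells and is no marker of red cells on its own. Of the markers chosen for other cells, none of 3 lymphoid, 3 myeloid and 3 neuronal genes had a peak, and 2 of 3 fibroblast genes did (Col1a1 and Pdgfrb). Neurod1, a neuronal marker, is itself a member and lacks a peak by the rule. The rest of these markers are not of the high-CpG class, and outside that class 71.1% of genes had no peak.

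Gene families were taken as lists of symbol patterns, and 628 of the 1852 members (33.9%) fell in at least 1 of the 44 lists. Of the 1554 high-CpG genes in any list, 40.4% had no peak, and of the 7957 in no list 15.4%. The bulk of the members, 1224 genes, therefore lay outside the lists. The plot of shares by family shows how widely the lists differed.

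**Figure D1:**
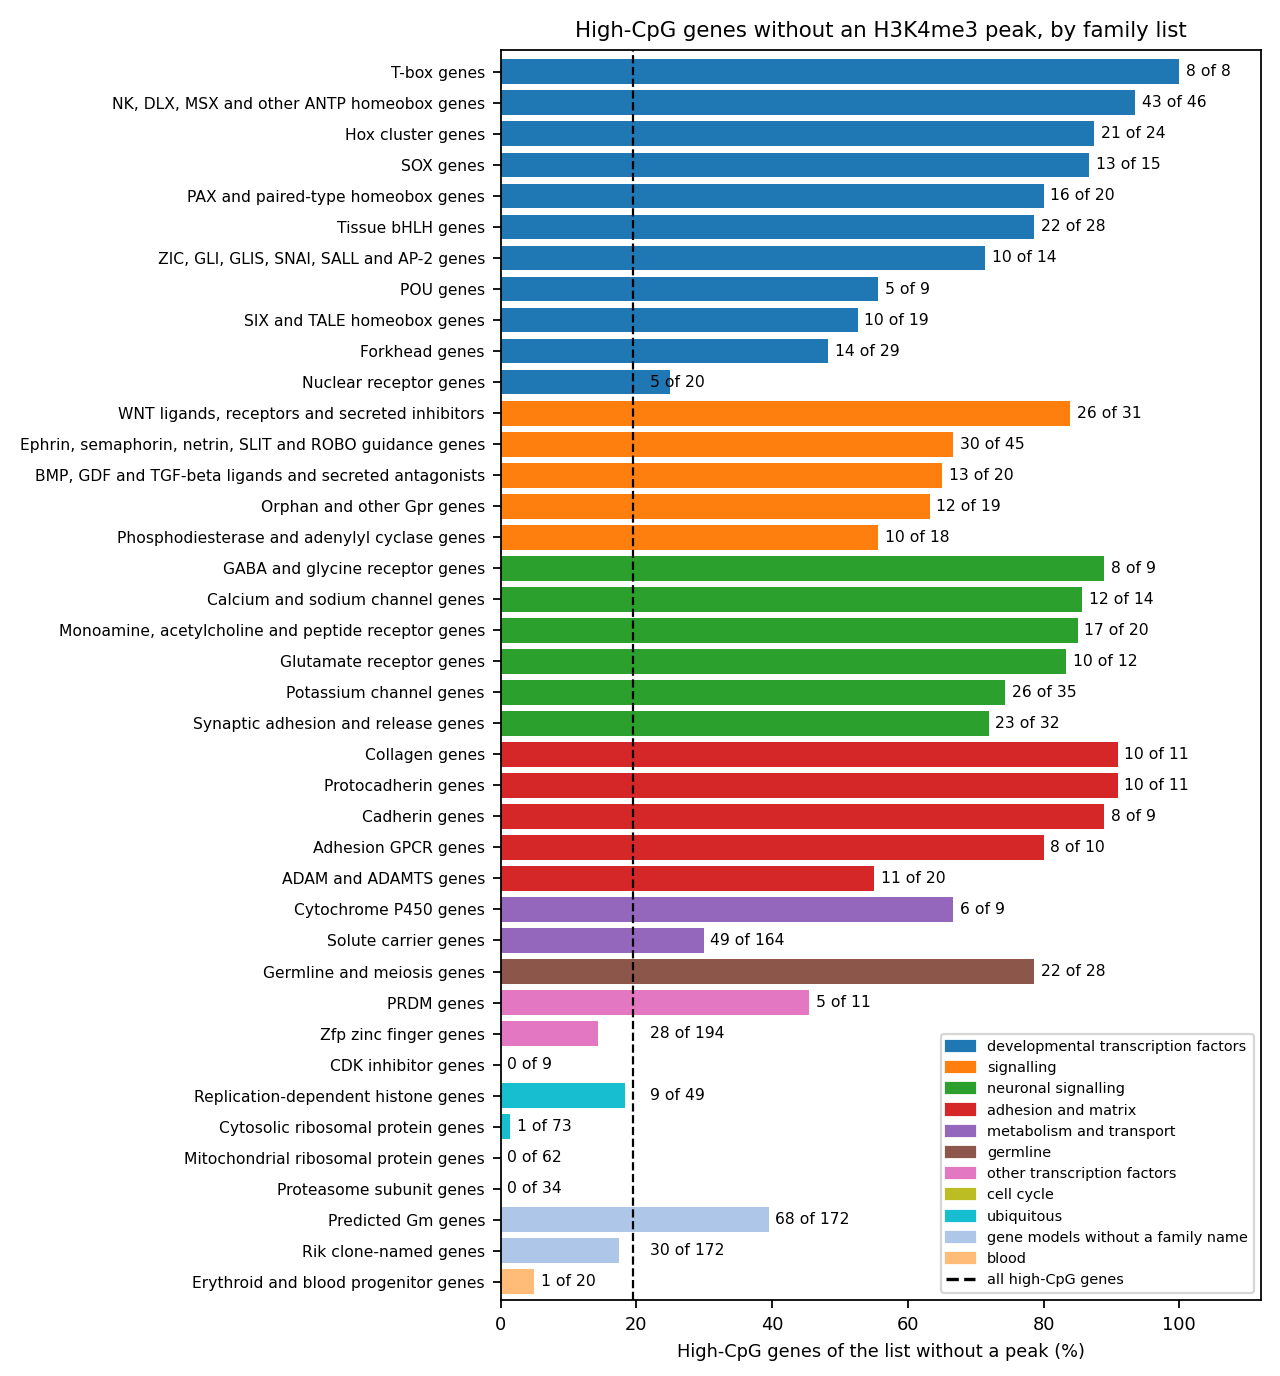
Share of the high-CpG genes of each family list without an H3K4me3 peak within 1000 bp of a start in any of the 4 lists (horizontal axis, percent), for lists with at least 8 high-CpG genes; the numbers beside the bars are genes without a peak of high-CpG genes, colours mark the role of the list, and the dashed line marks the 19.5% of all high-CpG genes. Homeobox, T-box, SOX, collagen and neurotransmitter receptor lists lie far to the right of the line, and ribosomal protein, proteasome and Cdkn lists at or near 0. The nuclear receptor list lies near the line, at 25%.

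Developmental transcription factors were the largest role group. Of their 241 high-CpG genes 174 had no peak, a share of 72.2% against the 19.5% of all high-CpG genes, and they made up 9.40% of the members but 0.875% of the high-CpG genes with a peak. The replicate 1 list alone left 177 of them without a peak and the replicate 2 list 176. Their share without a peak lay between 65.6% and 74.7% under every alternative setting tried.

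The homeobox genes, which encode DNA-binding regulators of body plan and cell identity, were mostly without a peak. Among the ANTP-type homeobox genes outside the Hox clusters (the NK, DLX, MSX, EN and related genes) 43 of 46 had no peak, and the 3 exceptions were Hlx, Nkx1-2 and Vax2. The member of highest CpG ratio was Barhl2, a regulator of neuronal fate, at 1.068 and 115 kb from the nearest peak of any list, followed by En2 (1.003, 92.7 kb), a hindbrain regulator, Nkx6-2 (0.978, 101 kb) and Tlx3 (0.962, 39.5 kb). Of the list of PAX, paired-type and Prox homeobox genes 16 of 20 lacked a peak. Gsc, the organizer gene goosecoid, lay 248 kb from the nearest one and Prox1, a regulator of lymphatic and liver development, 183 kb away. Of the LIM homeobox genes 6 of 7 lacked a peak, among them Isl1, a regulator of motor neurons and heart, and Lhx1. The homeobox list of TALE genes and sine oculis homologues was split, 10 of 19 without a peak. The 9 with a peak were Meis1, Meis2, Pbx3, Pknox1, Tgif1, Tgif2, Irx5, Six2 and Six5. The Iroquois genes Irx1 (1023 kb from a peak) and Irx2 (648 kb) were among the members, as was Pknox2. The POU list was split as well, 5 of 9 without a peak: Pou3f2 and Pou4f2, neuronal regulators, were members, and the 4 with a peak were Pou2f1, Pou2f2, Pou6f1 and Pou4f1, a paralogue of Pou4f2.

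All 8 high-CpG T-box genes lacked a peak. They included Tbx21, the master regulator of T helper type 1 cells, 8.32 kb from the nearest peak, and Tbx3 and Tbx18, regulators of limb and heart, 304 and 474 kb away. Of the SOX genes, which encode HMG-box factors, 13 of 15 lacked a peak. Sox2, a factor of pluripotency and neural stem cells, lay 222 kb from the nearest peak, Sox11 872 kb and Sox1 276 kb, while Sox12 and Sox13 had a peak. Of the tissue basic helix-loop-helix genes 22 of 28 were members, among them Tcf15 (19.9 kb), Twist1, a regulator of mesoderm (134 kb), and Bhlhe23 (44.7 kb). Tal1, the helix-loop-helix gene that red cells need, was among the 6 with a peak, together with Hes1, Hes6, Hey1, Hey2 and Neurog2. Of the list of ZIC, GLI, GLIS, SNAI, SALL and AP-2 genes 10 of 14 lacked a peak, with Gli3, an effector of hedgehog signalling, 355 kb away and Sall3 4.37 kb away.

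Forkhead, GATA and nuclear receptor genes were divided. Of 29 high-CpG forkhead genes 14 lacked a peak: Foxc1 (5.31 kb), Foxf2 (127 kb), Foxf1 (22.9 kb) and Foxi3 (111 kb) had the highest CpG ratios, and the rest of the members were Foxd3, Foxe3, Foxl1, Foxl2, Foxd1, Foxb1, Foxe1, Foxb2, Foxn4 and Foxr1. The 15 with a peak were Foxc2, Foxd2, Foxj1, Foxj2, Foxk1, Foxk2, Foxm1, Foxn2, Foxn3, Foxo1, Foxo3, Foxo6, Foxp1, Foxp2 and Foxp4. Of the 2 high-CpG GATA genes Gata5 lacked a peak and Gata2, a gene of blood progenitors, had one. Nuclear receptors, the receptors of steroid and thyroid hormones, came closest of these lists to the background of 19.5%, with 5 of 20 (25%) without a peak: Rora, Nr2e1, Thrb, Esrrg and Rorb.

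The 4 Hox clusters, which pattern the body axis, held 24 high-CpG genes, of which 21 (87.5%) had no peak in any list. Only Hoxa7, Hoxc9 and Hoxd8 had a peak. In the Hoxa cluster the Hoxa7 peak was the nearest one for the Hoxa members named here: it lay 16686 bp (replicate 1) and 16657 bp (replicate 2) from a Hoxa5 start, 12551 and 12522 bp from Hoxa6, 56442 and 56413 bp from Hoxa2, and 38726 and 38668 bp from Hoxa13. Members thus lay on both sides of a single marked start. The Hoxd members lay closer to peaks, with Hoxd13 3525 bp from one in each replicate list and Hoxd3 4467 bp in replicate 1 and 3253 bp in replicate 2, but Hoxd1 lay 55520 and 46745 bp away. In the Hoxc cluster the 4 members (Hoxc13, Hoxc12, Hoxc11 and Hoxc8) lay 5.15 to 23.8 kb from the nearest peak. Hoxc10, Hoxc5, Hoxc6 and Hoxc4, which are not of the high-CpG class by this window, each had a peak over a start in every list. Hoxb9, Hoxb7 and Hoxb5 lay 22.8, 5.59 and 7.23 kb from a peak. Hoxb13, not of the high-CpG class, had a peak within 21 bp of its start in every list. The map of the clusters shows these patterns, with marked stretches broad in Hoxc and nearly absent from Hoxa.

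**Figure D2:**
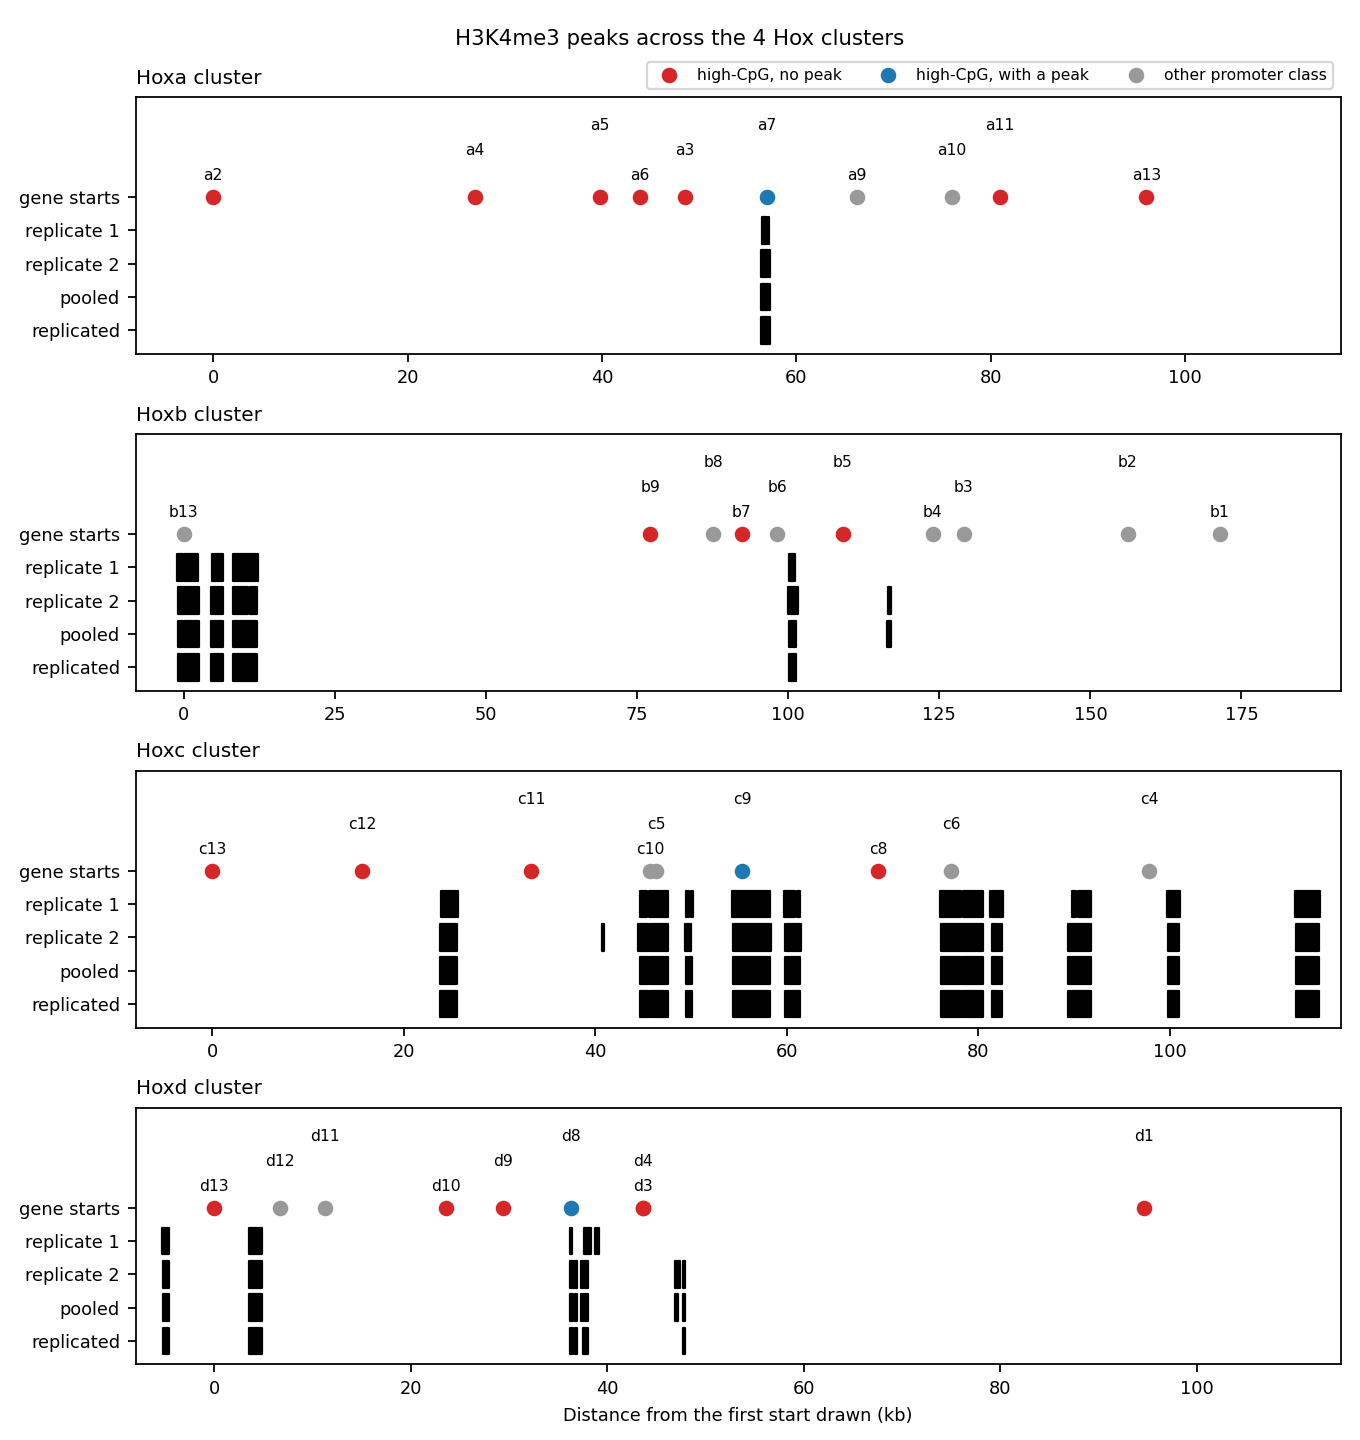
H3K4me3 peaks of the 4 lists (black bars, 1 row for each list) across the Hoxa, Hoxb, Hoxc and Hoxd clusters, with the 5'-most starts of Hox genes as dots against the distance in kb from the first start drawn (horizontal axis); red dots are high-CpG genes without a peak, blue dots high-CpG genes with one, grey dots genes of other promoter classes. The 1 marked position in Hoxa sits at Hoxa7, while Hoxc holds many peaks between and over its starts.

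Of the genes of cell to cell signalling, 94 of 139 high-CpG genes (67.6%) had no peak. WNT ligands, receptors and secreted inhibitors led with 26 of 31. Among the ligands Wnt5b (5.17 kb from a peak) and Wnt9a (45.8 kb), and of the Frizzled receptors Fzd3 (25.6 kb), were members, together with Sfrp1 (35.9 kb), a secreted inhibitor of WNT. No WNT ligand of the high-CpG class had a peak within 1000 bp of a start. The 5 listed genes with one were Fzd4, Fzd5, Fzd7, Fzd9 and the inhibitor Wif1. Wnt5b nonetheless held 9 peaks of the replicated list inside the gene, away from its annotated starts. Of the BMP, GDF and TGF-beta list 13 of 20 lacked a peak, among them the ligand Bmp2 (1.077, 44.7 kb) and the secreted antagonists Nog (196 kb) and Fst (28.2 kb), while Tgfb1, Tgfb3, Bmp1 and Gdf11 had one. Of 6 FGF ligand genes 3 lacked a peak (Fgf18, Fgf8 and Fgf5). The guidance genes of axons and vessels were members in 30 of 45 cases. Those of highest CpG ratio were the netrin receptor gene Unc5b (67.4 kb), the ephrin genes Efnb2 (26.1 kb) and Efna5 (96.8 kb), and Unc5d, 1876 kb from the nearest peak. The ephrin A ligand genes were divided, with Efna1, Efna2, Efna3 and Efna4 marked at a start and Efna5 not. Efna5 held 4 peaks of the replicated list inside the gene. Orphan and other Gpr genes were members in 12 of 19 cases and phosphodiesterase and adenylyl cyclase genes, which set the level of cyclic nucleotides, in 10 of 18. Pde8a of the latter list had the highest CpG ratio of all members, 1.147, and lay 35732 bp from a peak in replicate 1 and 35373 bp in replicate 2.

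Neuronal signalling genes had the highest share of the grouped roles that span several lists, with 96 of 122 high-CpG genes (78.7%) without a peak, between 76.2% and 86.4% under every alternative. Potassium channel genes, which set the resting and repolarizing currents of excitable cells, were members in 26 of 35 cases, with Kcnmb4 (7.52 kb), Kcng3 (34.5 kb), Kcnj12 (9.43 kb) and Kcnk9 (262 kb) highest in CpG ratio. Calcium and sodium channel genes were members in 12 of 14 cases, Cacna1g and Cacna2d2 being the ones with a peak. Of the glutamate receptor genes 10 of 12 lacked a peak, among them Grin1 (8.66 kb), the obligatory subunit of NMDA receptors, and Grik3 (362 kb). Of the GABA and glycine receptor genes 8 of 9 did. They were the most remote of these lists, with a median of 488 kb to the nearest peak, and Gabrg3 lay 1011 kb, Gabra5 888 kb and Glrb 777 kb from one, though Gabbr2 lay 2.31 kb from one. Receptors for monoamines, acetylcholine and peptides were members in 17 of 20 cases, among them Htr7, a serotonin receptor (25.6 kb), and Adrb1, the main cardiac adrenoceptor (39.4 kb). Genes of synaptic adhesion and vesicle release were members in 23 of 32 cases, for example Syt7 (119 kb), Syt9 (719 kb) and Cbln1 (537 kb).

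Adhesion and matrix genes were members in 49 of 64 cases (76.6%), and both replicate lists gave the same 49. Collagen genes lacked a peak in 10 of 11 cases, including both chains of the basement membrane collagen pair Col4a1 (94.3 kb) and Col4a2 (36.3 kb), and Col15a1 had one. Protocadherin genes lacked one in 10 of 11 cases and classical and other cadherin genes in 8 of 9, among them Cdh2, N-cadherin (6.68 kb), and Cdh1, E-cadherin. Adhesion receptors coupled to G proteins lacked one in 8 of 10 cases, with Adgre5, a leukocyte gene, among those with a peak. ADAM and ADAMTS protease genes were divided, 11 of 20 without a peak. Of the 11, 10 were secreted ADAMTS or ADAMTS-like genes such as Adamts2 (31.4 kb), and 1 was the membrane-bound type, Adam23 (266 kb). The 9 with a peak were Adam1a, Adam9, Adam10, Adam11, Adam15, Adam17, Adam22, Adamts3 and Adamts17.

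Genes of the germline were members in 22 of 28 cases (78.6%), in both replicate lists alike. They fall in 3 functional sets. The meiotic chromosome axis and synapsis genes were Sycp1 (10.1 kb from a peak), Sycp2 (351 kb), Sycp3 (43.1 kb), Hormad1 (28.0 kb), Tex12 (24.4 kb), the cohesin genes Stag3 (15.1 kb) and Smc1b (53.0 kb), the recombinase gene Dmc1 (6.46 kb), and Mei1 (21.9 kb). The genes of the piRNA pathway and germ granules, which silence transposons, were Ddx4 (5.72 kb), Mael (84.4 kb), Mov10l1 (12.6 kb), Asz1 (263 kb), Tdrd1 (3.29 kb), Tdrd6 (301 kb), Tdrkh (19.8 kb), Stk31 (27.9 kb) and Fkbp6 (3.03 kb). The third set held other genes of testis or germ cells: Boll (35.1 kb), Sox30 (24.3 kb), the testis ADP/ATP carrier gene Slc25a31 (14.5 kb) and the retrogene Rpl10l (193 kb). The 6 germline genes of the high-CpG class with a peak were Dazl, Meiob, Prdm9, Syce2, Tdrd5 and Tex14. The germline share moved with the class window: measured over 1000 bases to either side of the start, 15 of the listed genes were high-CpG and 9 of them (60%) lacked a peak.

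Germline members also shared a sequence word that the rule did not use. The 6-base word CACGTG, a palindrome and the E-box form that MYC, MAX and related helix-loop-helix proteins bind, stood in the promoter window of 17 of 22 germline members (77.3%). It stood in 20.8% of all members, 23.4% of the high-CpG genes with a peak and 17.3% of all 20807 promoters. Of the 6 germline genes with a peak 2 held it (33.3%), and of 34 germline genes of other promoter classes 7 did (20.6%). Within 100 bases of the start the word stood in 8 of 22 germline members (36.4%), against 6.86% of all members and 8.59% of the high-CpG genes with a peak. Hox members also held it often, in 12 of 21 promoters (57.1%), but it stood in 1 of 26 potassium channel promoters and 0 of 10 collagen promoters of the members. The word was on a list of 10 searched in all promoters, and its share in germline genes was singled out after the values were seen. The sites nearest the start are shown for the 6 germline members in which they lay closest, as 26 bases of GRCm38 on the gene's strand with the word in capitals.
Tdrd1 (chr19:56826188-56826213, plus strand): gggctgcgcgCACGTGggagtaaact
Hormad1 (chr3:95559647-95559672, plus strand): gcgcactgcgCACGTGctgaccggag
Sycp3 (chr10:88459534-88459559, plus strand): gggcatggagCACGTGctaggaggcg
Tex12 (chr9:50561346-50561371, minus strand): gcgagactgtCACGTGgctcgcgcgc
Fkbp6 (chr5:135350066-135350091, minus strand): gtctatcgatCACGTGccgtttctct
Mei1 (chr15:82070035-82070060, plus strand): cgcgctcctcCACGTGcgctcggagc
In Tdrd1 the word began 11 bases upstream of the start, in Hormad1 20, in Sycp3 25, in Tex12 36 and in Fkbp6 37 bases upstream, and in Mei1 it began 49 bases downstream. A match of letters is a description and not evidence that a factor binds.

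Of the metabolic and transport lists, solute carriers lay nearer the background than cytochrome P450 genes. Genes with solute carrier symbols, most of which encode membrane transporters of ions and nutrients, were members in 49 of 164 cases (29.9%). Cytochrome P450 genes were members in 6 of 9 cases (66.7%). The carriers of highest CpG ratio among the members were Slc30a4, a zinc exporter (35.1 kb), and Slc4a4, a bicarbonate cotransporter (1.84 kb). Zinc finger genes with Zfp-type names were members in 28 of 194 cases (14.4%), below the 19.5% of all high-CpG genes, and PRDM genes in 5 of 11. Among the Zfp members Zfp618 (0.970, 254 kb) and Zfp521 (0.933, 23.0 kb) had the highest CpG ratios.

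Ribosomal protein and proteasome genes, which most cells use, were nearly absent from the members. None of 62 mitochondrial ribosomal protein genes and none of 34 proteasome genes lacked a peak. Of 73 genes with Rpl or Rps symbols only Rpl10l, the retrogene named above with the germline genes, did. That symbol pattern also takes in a few genes of no ribosomal protein, such as the kinase genes Rps6ka1 and Rps6kb1. None of the 9 genes with Cdkn symbols, among them the cell cycle inhibitor genes Cdkn1b, Cdkn2a and Cdkn2c, lacked a peak. Of 20 blood genes 1 lacked a peak, Slc25a37, which encodes mitoferrin, the mitochondrial iron importer of red cell precursors. Its promoter is repeated in full: 100% of its 32-base words occur more than once in the genome, and its nearest peak lay 33156 bp away in replicate 1 and 421661 bp in replicate 2. Replication-dependent histone genes were members in 9 of 49 cases (18.4%), near the 19.5% of all high-CpG genes. Only 3 of the 49 had under 10% repeated words, and 1 of those 3 was a member. Repeated promoters were thus the rule in this list, with or without a peak.

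Repeated sequence moved with membership at its extreme. The measure is the share of 32-base words of the promoter window with a second copy anywhere in the genome, both strands counted. Where all words were repeated, 30 of 32 high-CpG genes had no peak (93.8%), and where over 50% but not all were, 42 of 85 did (49.4%). With no repeated word the share was 20.4%, and with over 10% and up to 50% it was 11.6%. At least 50% of words were repeated in 72 members (3.89%) and in 45 high-CpG genes with a peak (0.588%). The placing of reads from such sequence was not given in the sources used here, and its part in these calls was not tested. With promoters of under 10% repeated words alone, 1723 members remained of the high-CpG genes (19.3%), and the developmental transcription factor lists kept 168 of their 174 members.

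**Figure D3:**
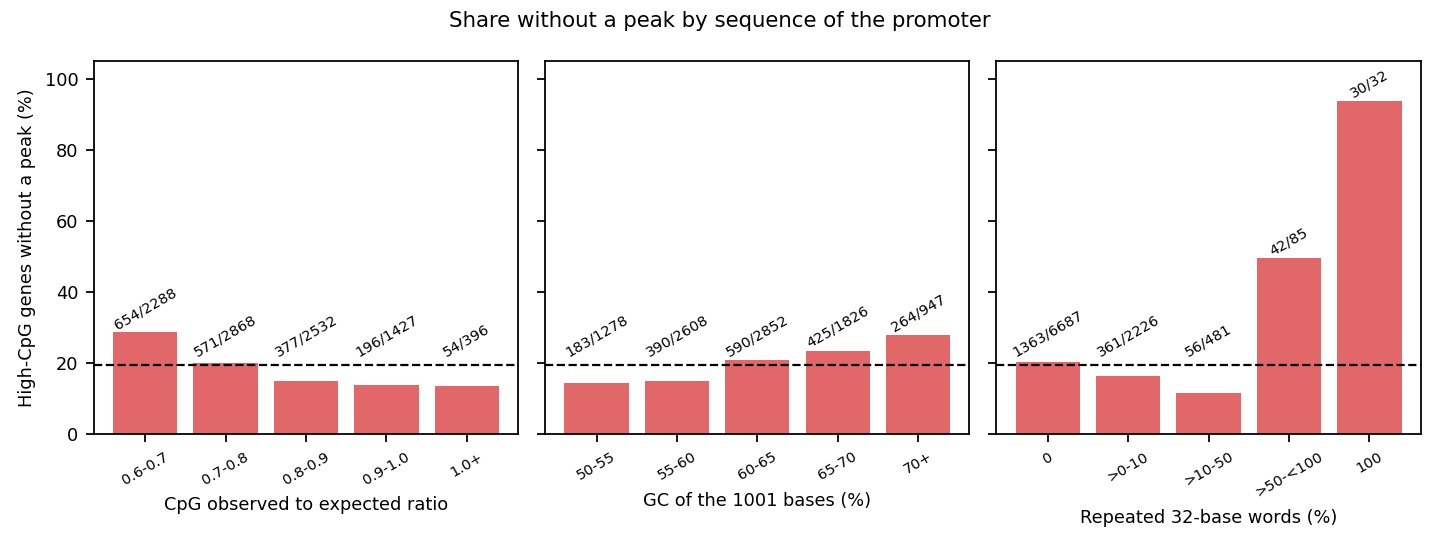
Share of high-CpG genes without a peak (vertical axis, percent) by the CpG observed to expected ratio, the GC content and the share of repeated 32-base words of the promoter (horizontal axes); numbers over the bars are genes without a peak of high-CpG genes in the bin, and the dashed line is the 19.5% of all. The share falls from 28.6% to 13.6% with the CpG ratio, rises from 14.3% to 27.9% with GC, and reaches 93.8% where all words are repeated.

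Members were spread over all 19 autosomes, from 12.9% of the high-CpG genes of chromosome 11 to 28.9% of those of chromosome 14. Next to a member, the neighbouring high-CpG gene on either side was also a member in 33.2% of cases, and next to a high-CpG gene with a peak in 16.1%. With at least 3 members whose starts follow each other within 100 kb called a cluster, there were 37 clusters with 141 members (7.61%). By the same rule 59.2% of all high-CpG genes fell in clusters. That set holds 9511 genes and the members are 1852, and a fixed gap joins fewer genes of a sparser set. The cluster shares therefore do not tell whether members are more or less clustered than high-CpG genes at large. In 27 of the 37 clusters no high-CpG gene with a peak lay between the members. In 8 clusters, holding 33 members, the median promoter had at least 50% repeated words. The number of clusters depended on the class window, with 10 when CpG content was measured over 1000 bases to either side of the start, and 5 with a CpG ratio of at least 0.75 and GC of at least 55%.

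The largest cluster was Hoxa with Evx1 on chromosome 6, 11 members of 12 high-CpG genes over 155 kb, among them Hoxa2, 5730596B20Rik, Hoxa4, Hoxa5, Hoxa6, Hoxa3, Gm28308, Hoxa11, Hoxa13 and Evx1. None of the cluster's promoters had more than 1.65% repeated words. Gm28308 and Hoxa3 start within a few bases of each other and share a promoter, as do Hoxd3 and Hoxd4. The Hoxd cluster on chromosome 2 with Evx2 held 7 members over 103 kb (Evx2, Hoxd13, Hoxd10, Hoxd9, Hoxd3, Hoxd4 and Hoxd1), 3.25 to 46.7 kb from the nearest peak. Smaller homeobox clusters were Hoxc13, Hoxc12, Hoxc11 and Hoxc8 on chromosome 15, Hoxb9, Hoxb7 and Hoxb5 on chromosome 11, and Dlx3 and Dlx4 with the integrin gene Itga3, also on chromosome 11. Over all members, 78 had a promoter window that overlapped another member's, so the 1852 promoters are 1812 separate stretches.

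Copies of repeated genes made up 2 of the 5 largest clusters. On chromosome 4, 8 gene models (Gm13289, Gm13272, Gm13276, Gm13277, Gm13278, Gm13275, Gm13279 and Gm13287) lay within 26.3 kb, with 96.7% to 100% repeated words. On chromosome 13, 6 histone genes (Hist1h2bq, Hist1h2ao, Hist1h4m, Hist1h4n, Hist1h2ap and Hist1h2br) lay within 23.5 kb, with 96.2% to 100%. With nearly all words shared between copies, the calls of these genes are uncertain.

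The fifth cluster, on chromosome 15, joined genes of different function over 226 kb with no more than 0.928% repeated words: Ttll8, a tubulin glycylase gene, Mov10l1, the piRNA helicase gene, Panx2, a pannexin channel gene, the p38 kinase genes Mapk12 and Mapk11, and Plxnb2, a semaphorin receptor gene. Panx2 lay 5490 bp from a peak in replicate 1 and 5473 bp in replicate 2, Mapk12 1876 and 1716 bp, Mapk11 15380 and 15220 bp, and Plxnb2 14341 and 14268 bp. Mov10l1 lay 51550 bp from a peak in replicate 1 and 12627 bp in replicate 2, so the lists differed in its surroundings though not in the call. Selenoo and Tubgcp6 in the same stretch had a peak. Other clusters with few repeats joined signalling and developmental genes, such as Wnt6, Cdk5r2, Fev and Ihh on chromosome 1, or germline genes with their neighbours, such as Sycp2, Ppp1r3d and Fam217b on chromosome 2, 351 to 390 kb from the nearest peak.

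Runs of high-CpG genes in a row without a peak, whatever the distance between them, numbered 48 with at least 4 genes and held 247 members (13.3%). The longest, on chromosome 14, had 18 genes over 4590 kb. Its first 16 were gene models with Gm or Rik names (Gm10409 to Gm3739), and its last was Abhd6, a lipase gene. The next, of 9 genes over 1676 kb on the same chromosome, included Dock5, the neurofilament genes Nefl and Nefm, Slc25a37, Entpd4, Gm16867, Entpd4b and Loxl2. Within it Slc25a37, Entpd4, Gm16867, Entpd4b and Loxl2 had 100% repeated words, while Dock5, Nefl and Nefm had under 1%. Of the 3 runs of 8 genes, 1 had promoters with at most 3.81% repeated words and spanned 5677 kb of chromosome 2: Kcnh7, Fign, Cobll1, Galnt3, Ttc21b, B3galt1, Stk39 and Cers6. Fign, which encodes the microtubule-severing enzyme fidgetin, lay 1412198 bp from a peak in replicate 1 and 504995 bp in replicate 2. The other runs of 8 were the chromosome 4 models and part of the Hoxa cluster up to Gm28308.

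Most members were far from any peak rather than just past the 1000 bp limit. The median distance from a start to the nearest peak of any list was 39.2 kb, with quartiles of 13.7 and 110 kb. In the replicate 1 list the median was 46.1 kb and in replicate 2 43.7 kb. A peak lay within 2.5 kb of 3.62% of members, within 10 kb of 19.3% and within 100 kb of 72.7%. Genes of other promoter classes without a peak had a median of 50.6 kb. The 10 farthest were gene models of chromosome 14, from Gm3488 at 2257 kb to Gm10409 at 4361 kb, and in all 10 at least 56.7% of words were repeated. A replicated peak lay inside the gene, between its start and end, in 320 members (17.3%), and in 9.51% of the genes of other classes without a peak. Most of the family list members singled out by the naming rule held none. Esrrg held 11, Wnt5b and Dlgap1 9 each, Gabbr2 8, Col5a1 6, and Ddx4 and Pcdh7 5 each. For such genes the missing peak concerns the starts and not the whole gene. The median length of the members was 44.1 kb and that of the high-CpG genes with a peak 24.7 kb.

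**Figure D4:**
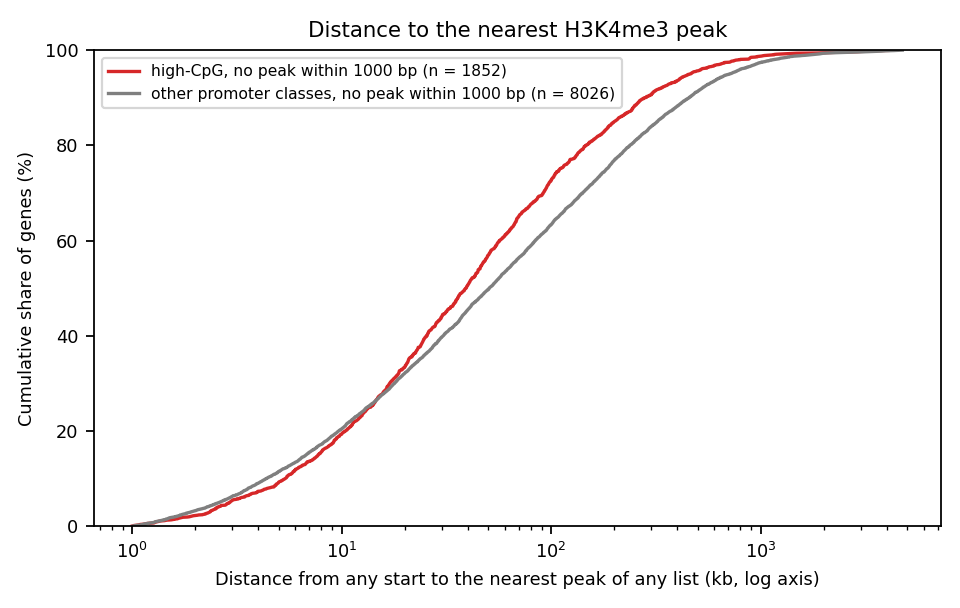
Cumulative share of genes (vertical axis, percent) by distance from any start to the nearest peak of any list (horizontal axis, kb, log axis), for the 1852 high-CpG genes without a peak within 1000 bp (red) and the 8026 genes of other promoter classes without one (grey). The red curve passes 56.9% at 50 kb and 72.7% at 100 kb.

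Few genes sat at the limit itself. Up to 1500 bp from a start 24 members had a peak, and 37 high-CpG genes that are not members had their nearest one over 500 and up to 1000 bp away. Just outside lay Hook1, with a peak 773586 bp away in replicate 1 and 1017 bp in the pooled list, Gm4969 (1028 and 1014 bp), Oprd1, the delta opioid receptor gene (1019 and 34388 bp), Lmo7 (1283 and 1051 bp) and 1700067K01Rik (1070 and 1604 bp). Just inside lay Nsmaf (994 and 985 bp), Foxp2 (1372 and 1214 bp, and 979 bp in the pooled list), Plekha5 (961 and 1180 bp), Fam110b (392439 and 952 bp) and Cfap69 (43838 and 915 bp). Hook1 had a peak 1 bp past the limit in replicate 2. The replicates disagreed for Hook1, Oprd1, Fam110b and Cfap69, where 1 replicate had a peak near the limit and the other had none within 30 kb. On the side of the class limit, 326 members had a CpG ratio under 0.65. Ly6g6c and Col26a1 at 0.6002 were the members nearest to it, and Has3 at 0.5997 and Chst9 at 0.5991 the nearest genes below it that had no peak.

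At the other end of the class, the 10 members of highest CpG ratio were Pde8a (1.147), Chd7 (1.143), Sipa1l2 (1.114), Klf14 (1.113), Dennd5b (1.095), Gm37419 (1.090), Lin28b (1.084), Bves (1.079), Bmp2 (1.077) and Fign (1.070). Of the 10, 9 had no repeated word at all and Gm37419 had 5.05%. Chd7 encodes a chromatin remodeller whose loss causes malformations of several organs, and its start lay 41745 bp from a peak in replicate 1 and 41512 bp in replicate 2. Lin28b encodes an RNA-binding protein of fetal blood and stem cells, and its start lay 69919 and 69927 bp from one. Dennd5b was the only one of the 10 within 10 kb of a peak, at 2364 and 2360 bp. Of the 10, only Lin28b and Dennd5b held a peak between the start and end of the gene, and both did in every list.

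Within the class the CpG ratio and GC content, both used by the rule, moved in opposite ways with the share without a peak. The share was 28.6% at ratios from 0.6 to 0.7 and 13.6% at 1.0 and over, but 14.3% at 50% to 55% GC and 27.9% at 70% GC and over. The median ratio was 0.748 in members and 0.795 in high-CpG genes with a peak, the median GC content 62.9% and 61.0%, and the median CpG island length 850 bp in both. Other features lay outside the rule. Members had a median of 3 annotated starts and the high-CpG genes with a peak 5, and with fewer starts there are fewer places at which a peak counts. Against the 5'-most start alone, 2005 high-CpG genes (21.1%) had no peak. A single start was annotated for 23.8% of members and 9.14% of the genes with a peak, and a single exon in every transcript for 7.24% and 2.36%. A protein-coding gene started on the opposite strand within 1000 bp of 5.24% of members and of 24.7% of the genes with a peak. Here too a peak at the partner can count for both genes of a pair.

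Of 10 words searched on both strands of the promoter window, CCGGAAG, the core that ETS factors bind, differed most between members and genes with a peak, in percentage points. It stood in 12.7% of members, 36.0% of high-CpG genes with a peak and 19.5% of all promoters. Within 100 bases of the start the shares were 3.78% in members and 19.8% in genes with a peak. The difference was there among genes with no opposite-strand start within 1000 bp (12.5% of 1499 members and 32.2% of 4798 genes with a peak). It was also there in every band of CpG ratio, for example 14.4% and 33.9% at 0.6 to 0.7 and 10.8% and 34.3% at 0.9 and over. Among family lists with at least 8 members its share ranged from 0, as in the 14 forkhead and 10 collagen members, to 4 of 10 (40%) in the phosphodiesterase and adenylyl cyclase list. It stood in 4 of 21 Hox, 3 of 13 SOX, 7 of 22 germline (31.8%) and 21 of 68 predicted Gm members (30.9%). GCATGCGC, the form NRF1 binds, stood in 4.59% of members and 9.88% of genes with a peak. TGACGTCA, the cyclic AMP response element, stood in 3.19% and 5.68%. TCACGTGA, an extended E-box that contains CACGTG, stood in 0.756% and 3.47%.

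GGGCGG, the GC box that SP1 binds, stood in 92.4% of members and 93.2% of genes with a peak, CCAAT in 61.1% and 64.9%, TCGCGCCA, an E2F-like form, in 3.24% and 3.32%, and TATAAA in 17.0% and 17.6%. At the place of a TATA box, 40 to 15 bases upstream on the gene's strand, TATAAA stood in 1.57% of members and 0.561% of genes with a peak, against 2.48% of all promoters. GATAAG, a form that GATA factors bind, stood in 11.5% and 14.0%, against 20.4% of all promoters. In all these comparisons the genes are 1 genome's and not replicates, and whether the words play a part in the missing peaks was not tested.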

How the data were processed

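H3K4me3 ChIP-seq peaks of 2 replicate libraries of MEL cells were deposited as narrowPeak lists on mm10: 1 for each replicate, 1 pooled and 1 of replicated peaks. The deposited lists give each peak a signal value, a score of unstated definition, and the authors' −log10 p and −log10 q values. Aligner and peak caller were not given in the sources used here. Only peak positions, summits and, as an alternative, the −log10 q were used here. An mm9 list was not used. Depth is unknown, as the lists hold no counts.

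Gene starts came from GENCODE M21 and sequence from GRCm38. Distances ran from any transcript start to the nearest base of a peak. CpG ratio, GC, islands (200-base windows at steps of 50), repeated 32-base words and word matches were computed with Python 3.11.15, numpy 2.4.6 and numba 0.67.0. Distances, CpG measures and cluster calls were checked on simulated data. The members and the family lists were chosen with earlier results of these data known, and no list is independent support.

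Genes were named by a rule: up to 4 members of highest CpG ratio in each family list, the 10 of highest ratio, the 10 farthest from a peak, the 5 largest clusters, the 3 longest runs, the 5 on either side of 1000 bp, and all germline, Cdkn and blood members. Other genes, such as those with a peak in a list, were named after their values were seen. Alternatives varied the distance, the starts, the peak list, the q-value, the class limits and window, repeats and the cluster gap. No columns of other samples were left out. A few genes are counted but not reported by name here.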

Additional observations from a re-analysis of the deposited data

How the results depend on the processing

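With no test to pass, a percent is given where it moved by more than the SD between the replicate lists and a count where it moved by over 1.5 times. The share of high-CpG promoters without a peak, 19.5%, was 19.9%, 18.8% and 17.7% with peaks sought within 500, 2500 and 5000 bp, 21.1% with the 5'-most start and 20.8% with starts of protein-coding transcripts. It was 20.0% in the replicated list, 19.8% in the pooled list and 20.0% with −log10 q of at least 5. With single replicate lists it ranged from 19.6% to 20.1%. It was 16.4% with a CpG ratio of 0.75 and GC of 55%, and 19.9% and 20.2% with class windows reaching 250 and 1000 bases to either side of the start.

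The share of members in developmental transcription factor lists, 9.40%, was 9.64% at 2500 bp, 8.98% with the 5'-most start, 9.05% with protein-coding starts and 9.52% by summit. It was 9.25% in the replicated and 9.23% in the pooled list, 9.25% to 9.42% with single replicates and 9.24% with the q limit. It was 9.14% with the stricter CpG limits, 8.09% and 11.2% with the narrower and the wider window and 9.75% with under 10% repeated words.

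The share of members in clusters, 7.61%, was 7.89% at 500 bp, 7.19% at 5000 bp, 7.33% with the 5'-most start, 7.55% to 7.84% with single replicates and 7.41% with the q limit. It was 1.83% with the stricter CpG limits, 3.18% with the wider window, 5.46% with under 10% repeated words, and 4.27% and 18% with gaps of 50 and 250 kb. The 37 clusters became 5, 10, 19 and 94 with the stricter limits, the wider window and those gaps.

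The stricter CpG limits, which make the class smaller, left 875 members, among them 80 developmental transcription factor, 51 neuronal, 49 signalling, 19 adhesion and matrix and 6 germline genes. With the wider window 9 germline genes were left. All other counts in those 5 roles stayed within 1.5 times. Of the roles not run under each alternative, gene models without a family name and ubiquitous genes fell with under 10% repeated words. The gene models went from 98 of 344 high-CpG genes to 52 of 272, and the ubiquitous genes from 10 of 218 to 1 of 145. Depth is unknown and limits every call of a missing peak. No paired analysis was possible because the series has 1 group.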

Other observations

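Outside the family lists, members shared symbol stems that were looked at after their values were seen, among stems with at least 8 high-CpG genes. Genes with Chst or Chsy symbols, for carbohydrate sulfotransferases and chondroitin synthases, lacked a peak in 5 of 9 cases (Chst1, Chst2, Chst8, Chst10 and Chsy3). Galnt genes, which start mucin-type O-glycans, lacked one in 6 of 11 (Galnt3, Galnt9, Galnt12, Galnt13, Galnt14 and Galnt18). Genes with Rgs symbols, most of which shorten G protein signals, lacked a peak in 5 of 10 cases (Rgs7, Rgs7bp, Rgs9, Rgs17 and Rgs22). That stem also takes in Rgs7bp, which is named for a binding protein and is not itself an Rgs gene. Klf genes lacked one in 6 of 14 cases, against the 19.5% of all high-CpG genes. The Klf members were Klf2, Klf4, Klf9, Klf12, Klf14 and Klf15. The start of Klf2, a gene of endothelium and quiescent lymphocytes, lay 3716 bp from a peak in replicate 1 and 3679 bp in replicate 2, and that of Klf4 41793 and 41852 bp.

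Some members belong to genes that many cell types transcribe. Ccnd1, cyclin D1, lay 22027 and 22280 bp from a peak in replicates 1 and 2 with no repeated word in its promoter. Ccn1, a matrix gene that serum and stretch induce, lay 72440 and 72425 bp from one. Hspa1a and Hspa1b, the inducible heat shock genes, lay 8681 and 8689 bp and 5552 and 5790 bp from one, and they are near copies, with 58.9% and 58.2% repeated words.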
